A study of Mus musculus with 8 samples.

Results

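The genes described are 37 genes of the extracellular matrix, named by Postn and Sulf1 and listed by symbol: collagens, matrix glycoproteins, proteoglycans and enzymes that modify the matrix. They were read on 8 Affymetrix Mouse Gene 1.0 ST arrays from sorted midbrain cells of newborn mice. Of the 37 genes, 35 have a probeset that the platform annotation gives to that gene alone, 1 probeset each among 35512 on the array. Fbn1 has no such probeset among those analysed here, and the probeset of Loxl2 carries several symbols, so neither is given a value. Every level below is a log2 signal, and a difference of 1 on that scale is a doubling.

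All mice were C57Bl/6 (C57Bl/6J by the study's methods) pups aged P1 to P4 that carried 1 copy of TH-EGFP, a transgene that marks catecholaminergic cells. SNc KO and VTA KO are cells from the substantia nigra pars compacta and the ventral tegmental area of Pitx3-/- pups, and SNc WT and VTA WT are the same dissections from Pitx3+/+ pups. Cells that excluded propidium iodide and carried EGFP were sorted, stored batches were pooled for each sample, and the RNA was linearly amplified, with 2 arrays for each of the 4 groups. Whether the 2 pools of a group held different animals is not stated by the sources used here, and p-values therefore describe the spread between pools that may differ for technical reasons alone. By the study's account the Pitx3-dependent neurons of the SNc are already lost in newborn Pitx3-/- pups, while those of the VTA are still present. A difference between SNc KO and SNc WT can therefore reflect which cells are left or how much RNA each holds, and in these bulk samples fewer cells of a type and less RNA per cell cannot be told apart.

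Extracellular matrix is the mesh of secreted proteins and sugar chains around cells. Collagens and laminins give it structure, proteoglycans carry long sulfated sugar chains that hold growth factors, and matricellular proteins such as periostin and osteonectin bind both matrix and cell receptors without building fibres. In brain, basement membrane proteins surround vessels and are made largely by endothelial and mural cells, while neurons and glia make versican, reelin and several heparan sulfate proteoglycans. The sulfation of heparan sulfate sets which growth factors and guidance molecules it binds, and the enzymes made from Sulf1 and Sulf2 remove sulfate groups from it outside the cell.

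Postn, which encodes periostin, was the member with the widest range over the groups, and its regulatory sequence is shown for that reason. RefSeq windows before a transcription start (GRCm38.p6) were at hand for 23 of the 35 measured members, and Postn has a pair of them on the plus strand of chromosome 3. The 250 bases before each start read as follows, with the TATA box letters TATAAA in capitals.
Postn, chr3:54359017-54359266: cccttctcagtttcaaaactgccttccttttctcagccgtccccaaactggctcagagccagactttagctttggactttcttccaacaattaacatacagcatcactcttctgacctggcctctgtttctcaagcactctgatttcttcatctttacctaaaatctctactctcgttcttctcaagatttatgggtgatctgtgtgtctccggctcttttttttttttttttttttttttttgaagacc
Postn, chr3:54360857-54361106: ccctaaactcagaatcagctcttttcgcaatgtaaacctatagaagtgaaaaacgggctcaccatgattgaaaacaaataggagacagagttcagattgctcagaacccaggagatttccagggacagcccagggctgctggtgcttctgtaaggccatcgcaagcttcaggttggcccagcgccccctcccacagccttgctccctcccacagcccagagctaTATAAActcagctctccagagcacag
The capitals of the downstream window begin 26 bases before its start, and no other motif searched lies in either printed stretch. Over windows reaching from 250 bases before to 50 after a start and read on both strands, TATAAA was found in 7 of the 30 windows of members, those of Col3a1, Ogn, Postn, Sulf2, Thbs2 and Tnc, and in 13.6% of all 32851 windows. TAATCC, the core letters of bicoid-class homeodomain proteins, the class of Pitx3, was in 0 of the 30 windows and in 7.06% of all. AAAGGTCA, the response element of NGFI-B nuclear receptors such as Nr4a2, was likewise in 0 of the 30 and in 1.51% of all. A match or its absence describes the letters in these windows only. Sulf1 had no window at hand, so none of these counts cover it.

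Postn signal was 8.58 and 8.80 on the SNc KO arrays, against 5.52 and 5.33 on the SNc WT arrays. In VTA it was 7.51 and 7.67 on the VTA KO arrays and 6.95 and 6.95 on the VTA WT arrays. The 4 groups did not overlap, and their order was SNc KO, VTA KO, VTA WT and SNc WT from high to low. Both SNc WT arrays lay under a linear signal of 60 (5.91 on the log2 scale), the minimum that the study set for a measured gene, and every other array lay above it. Postn rose in SNc KO against SNc WT, with a fitted log2 difference of 3.26 ± 0.131 (SE, n = 2 each; 95% interval 2.95 to 3.58) and an adjusted p of 0.00268 (limma, Benjamini-Hochberg over 22112 tested probesets). Since the SNc WT level lies under the minimum, its size is a bound: with SNc WT set at that minimum, the mean of SNc KO was at least 6.86-fold higher, or 2.78 on the log2 scale.

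Between the wild-type regions Postn was lower in SNc WT, with VTA WT above it, by a fitted log2 difference of -1.53 ± 0.131 (SE) with an adjusted p of 0.0165. With SNc WT set at the signal minimum, VTA WT was at least 2.06-fold higher, or 1.04 on the log2 scale. The neighbours at the top of the order were not separated by the test: SNc KO exceeded VTA KO by 1.09 (95% interval 0.78 to 1.41), with an adjusted p of 0.0594. Nor were the neighbours in VTA, where VTA KO exceeded VTA WT by 0.64 (95% interval 0.33 to 0.96), with an unadjusted p of 0.0022 and an adjusted p of 0.222 from limma. The fitted knockout effect on Postn was 3.26 in SNc and 0.64 in VTA. The difference between both effects, 2.62 ± 0.185 (SE), which also uses the SNc WT level under the minimum, had an adjusted p of 0.0995 and did not pass, although no other member had a smaller p in that comparison. Without VTA KO replicate 1 that adjusted p was 0.0464.

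Sulf1 encodes an extracellular endosulfatase of heparan sulfate. Its signal was 8.66 and 8.70 on the SNc KO arrays, against 6.79 and 6.69 on the SNc WT arrays. In VTA it was 8.68 and 8.80 on the VTA KO arrays and 7.68 and 7.79 on the VTA WT arrays. Knockout arrays of both regions lay together, and wild-type arrays lay below them, lowest in SNc WT. Sulf1 rose in SNc KO against SNc WT by 1.94 ± 0.108 (SE, n = 2 each), a 3.83-fold difference with an adjusted p of 0.00744. In VTA KO against VTA WT the difference was 1.0 (95% interval 0.74 to 1.26), with an unadjusted p of 5.99e-05 and an adjusted p of 0.0827 from limma.

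Sulf1 too was lower in SNc WT, set against VTA WT, by a log2 difference of -0.996 ± 0.108 (SE), with an adjusted p of 0.0231. Between SNc KO and VTA KO the difference was -0.06 (95% interval -0.32 to 0.20) with an adjusted p of 0.785, and its sign turned to 0.02 when array medians were subtracted. The knockout effect was 1.94 in SNc and 1.0 in VTA, and the difference of 0.94 ± 0.152 (SE) had an adjusted p of 0.23. These comparisons share arrays: the SNc WT arrays enter both the knockout comparison in SNc and the comparison of regions, for Postn and Sulf1 alike.

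**Figure D1:**
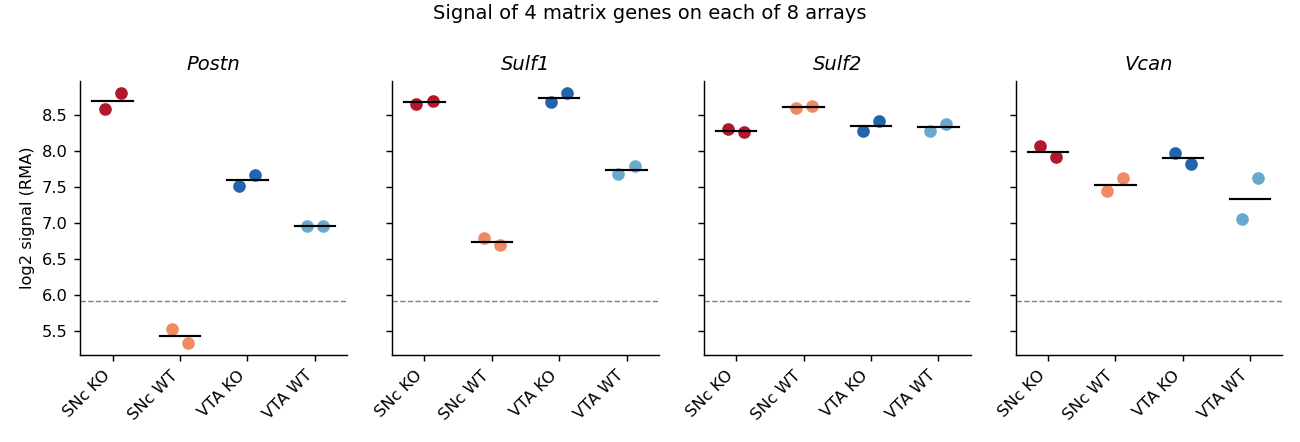
Log2 signal (vertical axis, RMA) of Postn, Sulf1, Sulf2 and Vcan on each array, with the groups SNc KO, SNc WT, VTA KO and VTA WT along the horizontal axis. Points are single arrays, the line is the mean of the 2 arrays of a group, and the dashed line is the signal minimum of 5.91. Postn lies at 8.58 and 8.80 in SNc KO and under the dashed line in SNc WT, and Sulf1 lies between 8.66 and 8.80 on all 4 knockout arrays.

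Sulf2, the second heparan sulfate endosulfatase, had a narrower range. Its signal was 8.30 and 8.26 in SNc KO, against 8.60 and 8.62 in SNc WT, and 8.28 and 8.42 in VTA KO, against 8.28 and 8.37 in VTA WT. The SNc arrays did not overlap between genotypes, and the VTA arrays did. The differences were -0.33 in SNc (unadjusted p = 0.0199 and adjusted p = 0.458, limma) and 0.02 in VTA, where the 95% interval was -0.23 to 0.28. Thus the values of Sulf1 and Sulf2 in SNc KO against SNc WT had opposite signs, 1.94 and -0.33, and only that of Sulf1 passed the test. The other modifier measured, Lox, an enzyme that crosslinks collagen and elastin, stayed under the signal minimum in every group.

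Of the 35 measured members, 27 exceeded the signal minimum in SNc KO and 23 in SNc WT, 28 in VTA KO and 29 in VTA WT, by the mean of the 2 arrays. These counts are 77.1% and 65.7% of the members in the SNc groups and 80.0% and 82.9% in the VTA groups, where the shares over all probesets with 1 gene symbol were 60.5% and 60% in SNc KO and SNc WT and 63.1% and 64.3% in VTA KO and VTA WT. The 22 members over the minimum in all 4 groups are Sulf1, Sulf2, Col1a1, Col1a2, Col3a1, Col4a1, Col4a2, Col5a1, Col6a2, Col11a1, Col18a1, Bgn, Fbn2, Fbln1, Fbln2, Fbln5, Sparc, Sparcl1, Thbs1, Mgp, Nid1 and Vcan. Another 7 exceeded it in some groups, namely Postn, Col6a1, Col6a3, Fn1, Tnc, Lama2 and Lama4. The remaining 6, Col5a2, Lum, Dcn, Thbs2, Lox and Ogn, exceeded it in none. Lum, Dcn and Ogn encode small leucine-rich proteoglycans that fibroblasts make in quantity, and Lum did not exceed 3.75 on any array.

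Some of these calls lie near the threshold. Col6a1 averaged 5.91 in SNc KO, just inside, and 5.83 in SNc WT, just outside, and Col6a3 averaged 5.90 in VTA KO, just outside, and 5.97 in VTA WT, just inside. With both arrays required to exceed the minimum, the counts were 26 in SNc KO, 19 in SNc WT, 24 in VTA KO and 27 in VTA WT. The shares over all probesets under this stricter rule were not computed, so these counts cannot be set against them. The 29 members over the minimum in at least 1 group entered the tests. A gene such as Postn, which is under the minimum in SNc WT, entered through the groups in which it is high.

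In SNc KO against SNc WT, 2 of the 29 tested members passed the test, Postn and Sulf1, both higher, and 0 were lower. Over all tested probesets, 0.0724% passed as higher and 0.0769% as lower. At an unadjusted p under 0.05, 6 members were higher (Bgn, Mgp, Nid1, Postn, Sparc and Sulf1) and 1, Sulf2, was lower, where the shares over all tested probesets were 4.82% higher and 3.8% lower. The median difference over the 35 members was 0.15, with 29 of them above 0, beside a median of 0.00 over all probesets. Most members differed little: apart from Postn and Sulf1, differences in SNc ranged from -0.33 for Sulf2 to 1.45 for Mgp. The 2 calls depend on the array set. Neither Postn nor Sulf1 passed without either SNc WT array, without SNc KO replicate 2, or in a fit of the 4 SNc arrays alone, where 0 probesets of all those tested passed, while the difference of Postn stayed between 3.15 and 3.37 and that of Sulf1 between 1.86 and 1.99 over all alternatives. Postn alone passed without SNc KO replicate 1, VTA WT replicate 1 or VTA WT replicate 2.

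**Figure D2:**
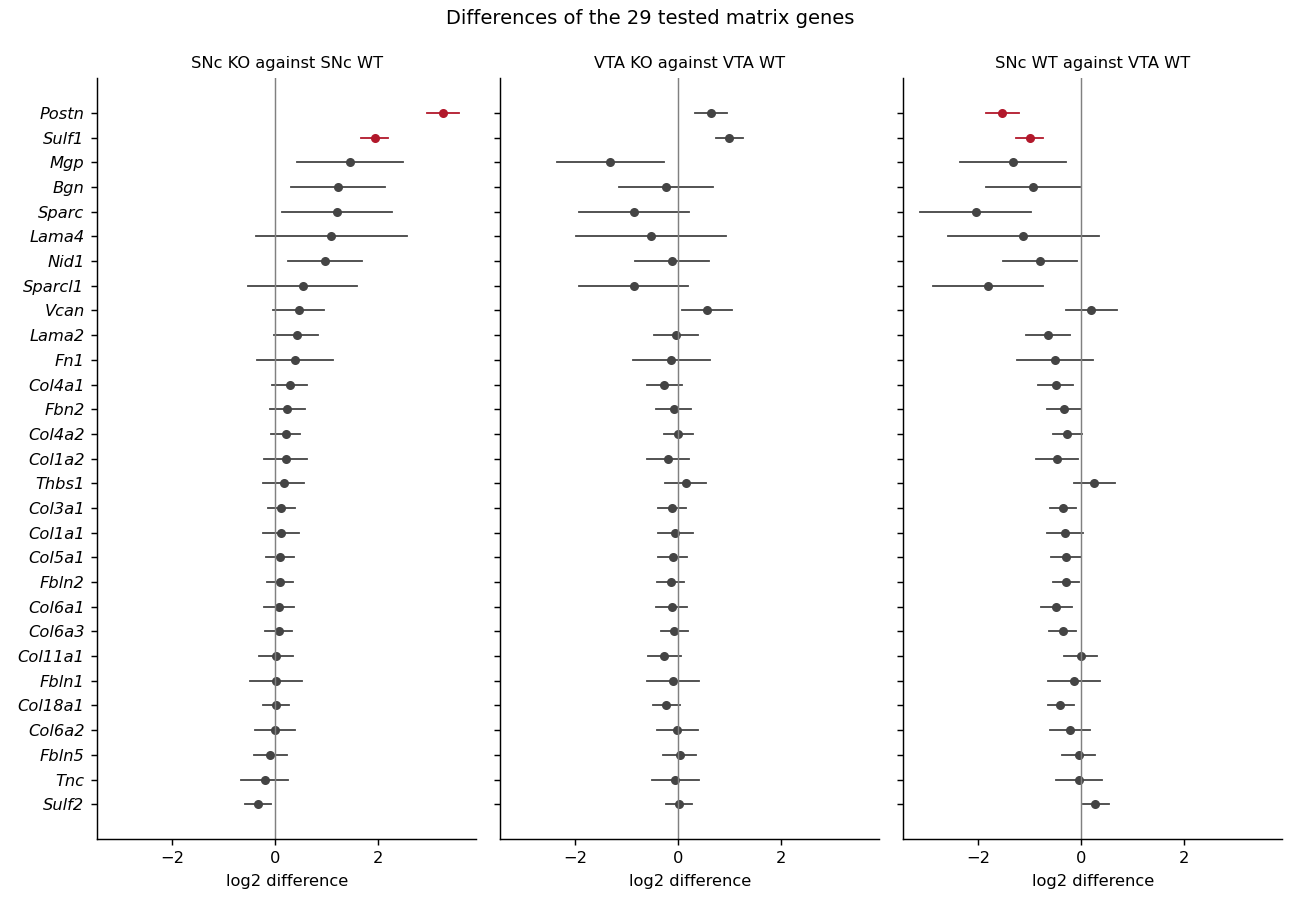
Log2 difference (horizontal axis) of the 29 tested matrix genes (rows, ordered by the difference in SNc) for the knockout comparison in SNc, the knockout comparison in VTA, and the wild-type regions (SNc WT against VTA WT). Points are differences, bars are 95% intervals from limma, and red marks an adjusted p under 0.05. Postn and Sulf1 are red in the first panel, at 3.26 and 1.94, and in the last, at -1.53 and -0.996, and no gene is red in the VTA panel.

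For VTA KO against VTA WT, 0 of 29 tested members passed in either direction, and over all tested probesets 0.00904% passed as higher and 0.0% as lower. At an unadjusted p under 0.05, limma gave 3 members as higher (Postn, Sulf1 and Vcan) and 1, Mgp, as lower, where the shares over all were 4.73% and 5.51%. The median over the 35 members was -0.10, with 25 of them below 0, beside -0.01 over all probesets. It ranged from -0.225 to 0.0578 when single arrays were left out, so that its sign rests on the array set.

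In SNc WT against VTA WT, the 2 members that passed were again Postn and Sulf1, both lower, and 0 were higher. Over all tested probesets 0.357% passed as lower and 0.0814% as higher. At an unadjusted p under 0.05, 16 of the 29 tested members were lower and 1, Sulf2, was higher, where the shares over all tested probesets were 10.2% lower and 8.59% higher. The median over the 35 members was -0.31, with 31 of them below 0, beside a median of -0.03 over all probesets. Subtracting array medians moved all differences in this comparison by 0.106, after which the members' median was -0.21 with 27 below 0. The 2 calls were lost without any 1 of the SNc WT, VTA WT or SNc KO arrays. Without either VTA KO array, calls rose among the members and over all tested probesets, and such fits rest on 1 array of VTA KO.

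Between the knockout regions, SNc KO against VTA KO, 0 members passed, where 0.0407% of all tested probesets passed as higher and 0.109% as lower. At an unadjusted p under 0.05, 2 members were higher in SNc KO (Mgp and Postn) and 0 were lower, beside 9.73% and 7.81% over all. For the effect of knockout in SNc minus that in VTA, 0 members and 0.0% of all probesets passed by limma in either direction. At an unadjusted p under 0.05, 7 members had the higher effect in SNc (Bgn, Col4a1, Mgp, Nid1, Postn, Sparc and Sulf1) and 0 the lower, where the shares over all tested probesets were 5.53% and 4.36%.

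The study chose genes by 3 thresholds together, which are a p no greater than 0.05 without adjustment, a 1.5-fold change and a linear signal of 60, and these were applied with limma's p. In SNc KO against SNc WT, 6 members (Bgn, Mgp, Nid1, Postn, Sparc and Sulf1) were then higher and 0 lower, beside 1.99% and 1.9% of all probesets over the minimum in these groups. In VTA KO against VTA WT, Postn and Sulf1 were higher and Mgp was lower, beside 1.97% and 2.49%. Between the wild-type regions 8 members (Bgn, Lama2, Mgp, Nid1, Postn, Sparc, Sparcl1 and Sulf1) were lower in SNc WT and 0 higher, beside 4.11% lower and 2.76% higher. Between the knockout regions Mgp and Postn were higher in SNc KO and 0 members lower, beside 3.63% and 3.65%. For the knockout effect in SNc minus that in VTA, the 6 members named for SNc were higher and 0 lower, beside 3.68% and 3.06%.

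Some matrix members differed widely between the duplicates of VTA KO. Of the 35, 6 differed by more than 1 between its 2 arrays (Bgn, Fn1, Sparc, Sparcl1, Mgp and Lama4), all lower on replicate 2, and 0 did so in SNc KO, SNc WT or VTA WT. Over all probesets 6.64% differed by more than 1 in VTA KO, and 2.91% to 3.76% in the other groups. Postn and Sulf1 were not among the 6: on VTA KO replicates 1 and 2 Postn was 7.51 and 7.67 and Sulf1 8.68 and 8.80. Every level or difference that uses VTA KO carries this spread. The model shares 1 spread per probeset over the 4 groups, so it also enters the SE, interval and p of comparisons without VTA KO. For Mgp the SE was 0.431 for the knockout in SNc, the knockout in VTA and the wild-type regions. Standard deviations of Mgp were 0.979 in VTA KO and 0.234 to 0.244 in the other groups. Those of Sparc were 1.07 in VTA KO and 0.0715 to 0.186 in the others, and those of Sparcl1 1.04 and 0.171 to 0.231. For Bgn they were 0.857 and 0.033 to 0.27, for Fn1 0.731 and 0.0273 to 0.131, and for Lama4 1.43 and 0.136 to 0.387.

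Mural cells, the pericytes and smooth muscle of vessels, contribute to the vessel basement membrane. Their 14 markers had a summed linear signal of 2649 and 2350 in SNc KO, against 1064 and 957 in SNc WT, and of 3037 and 778 in VTA KO, against 3227 and 2371 in VTA WT. The sums were low on both SNc WT arrays and on VTA KO replicate 2. A linear sum gives most weight to the brightest markers. The median log2 signal of the 14 was 6.50 and 6.44 in SNc KO, against 5.74 and 5.67 in SNc WT. In VTA that median was 6.67 and 5.68 in VTA KO, against 6.78 and 6.63 in VTA WT. Of the 14, 11 exceeded the signal minimum in SNc KO and 6 in SNc WT, and 9 in VTA KO and 9 in VTA WT. None of the 12 tested passed in SNc KO against SNc WT and limma gave 5 as higher at an unadjusted p below 0.05, beside 4.82% over all tested probesets, among them Myl9, a smooth muscle myosin light chain, at 8.48 and 8.22 in SNc KO and 6.05 and 5.76 in SNc WT. Rgs5, a pericyte marker, was 10.16 and 9.98 in SNc KO, 8.27 and 7.83 in SNc WT, 10.29 and 6.22 in VTA KO, and 10.40 and 9.96 in VTA WT. The part of these cells in the matrix values was not tested.

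**Figure D3:**
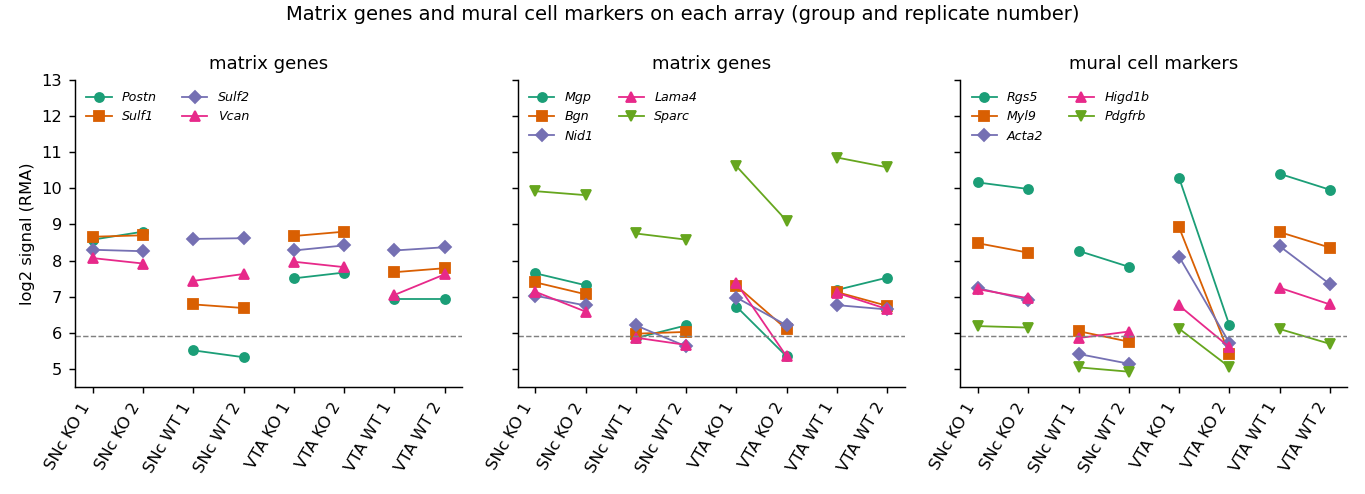
Log2 signal (vertical axis, RMA) on each of the 8 arrays (horizontal axis, group and replicate number) of Postn, Sulf1, Sulf2 and Vcan, of Mgp, Bgn, Nid1, Lama4 and Sparc, and of the mural markers Rgs5, Myl9, Acta2, Higd1b and Pdgfrb. Lines join the 2 arrays of a group and the dashed line is the signal minimum of 5.91. The genes of the middle and right panels are lower on VTA KO replicate 2 than on replicate 1, as in Rgs5 with 6.22 and 10.29, and Postn, Sulf1 and Sulf2 are not.

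Mgp, Sparc and Sparcl1 are further matricellular members, and each was lower on VTA KO replicate 2 than on replicate 1. Mgp encodes matrix Gla protein, an inhibitor of calcification made by vascular and cartilage cells. Its signal was 7.65 and 7.32 in SNc KO, against 5.86 and 6.21 in SNc WT, and 6.73 and 5.35 in VTA KO, against 7.19 and 7.53 in VTA WT. Knockout arrays lay above wild-type arrays in SNc and below them in VTA. The differences were 1.45 ± 0.431 in SNc and -1.32 ± 0.431 in VTA (SE, n = 2 each), with adjusted p of 0.415 and 0.375. The VTA value was -2.01 without VTA KO replicate 1 (adjusted p = 0.0638) and -0.626 without VTA KO replicate 2 (adjusted p = 0.266). The difference between the effects in SNc and VTA, 2.77, had an unadjusted p of 0.00331 and an adjusted p of 0.344 from limma.

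Sparc encodes osteonectin, a collagen-binding glycoprotein made by vascular cells and glia. It was 9.92 and 9.81 in SNc KO, against 8.75 and 8.58 in SNc WT, and 10.61 and 9.10 in VTA KO, against 10.85 and 10.58 in VTA WT. Its values did not overlap between the SNc genotypes, and in VTA KO replicate 2 lay below both VTA WT arrays by more than 1. Sparc differed by 1.2 in SNc KO against SNc WT, with an adjusted p of 0.521. Its difference for the wild-type regions, SNc WT set against VTA WT, was -2.05, with an adjusted p of 0.107. Both differences had an SE of 0.443, into which the spread of the VTA KO duplicates enters. These p-values therefore do not describe the spread of the compared groups alone. In VTA KO against VTA WT the difference was -0.86 with an adjusted p of 0.577. It rested on the VTA KO duplicates, being -1.62 without VTA KO replicate 1 (adjusted p = 0.0441, past the test) and -0.103 without VTA KO replicate 2 (adjusted p = 0.78).

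Sparcl1 encodes hevin, a relative of osteonectin that astrocytes secrete and that promotes synapse formation. Its signal was 10.41 and 10.17 in SNc KO, against 9.59 and 9.92 in SNc WT, and 11.43 and 9.96 in VTA KO, against 11.68 and 11.44 in VTA WT. VTA WT arrays were above all others of the gene. The differences were 0.54 between SNc KO and SNc WT (adjusted p = 0.832) and -1.80 between SNc WT and VTA WT (adjusted p = 0.129). The thrombospondin gene Thbs1, whose protein binds Cd47 and activates TGF-beta, ranged only from 6.39 to 7.07 over the 8 arrays and differed by 0.17 in SNc, 0.15 in VTA and 0.26 in SNc WT against VTA WT. Tnc, tenascin C of the developing brain, had differences of -0.20 in SNc and -0.06 in VTA, and Thbs2 stayed under the signal minimum.

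Of the 5 proteoglycans, Vcan and Bgn were over the signal minimum. Vcan encodes versican, a large chondroitin sulfate proteoglycan of the brain matrix. It was 8.07 and 7.92 in SNc KO, against 7.44 and 7.63 in SNc WT, and 7.97 and 7.82 in VTA KO, against 7.05 and 7.62 in VTA WT. All 4 knockout arrays lay above all 4 wild-type arrays. The differences were 0.46 ± 0.204 in SNc and 0.56 ± 0.204 in VTA (SE, n = 2 each), with adjusted p of 0.613 and 0.426, and so did not pass.

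Bgn encodes biglycan, a small leucine-rich proteoglycan of vessel walls and bone. It was 7.40 and 7.07 in SNc KO, against 5.98 and 6.03 in SNc WT, and 7.31 and 6.10 in VTA KO, against 7.13 and 6.75 in VTA WT. The SNc genotypes did not overlap, and the VTA KO arrays lay on either side of the VTA WT arrays. Bgn differed by 1.23 ± 0.379 between SNc KO and SNc WT (adjusted p = 0.432) and by -0.24 between VTA KO and VTA WT (adjusted p = 0.869).

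**Figure D4:**
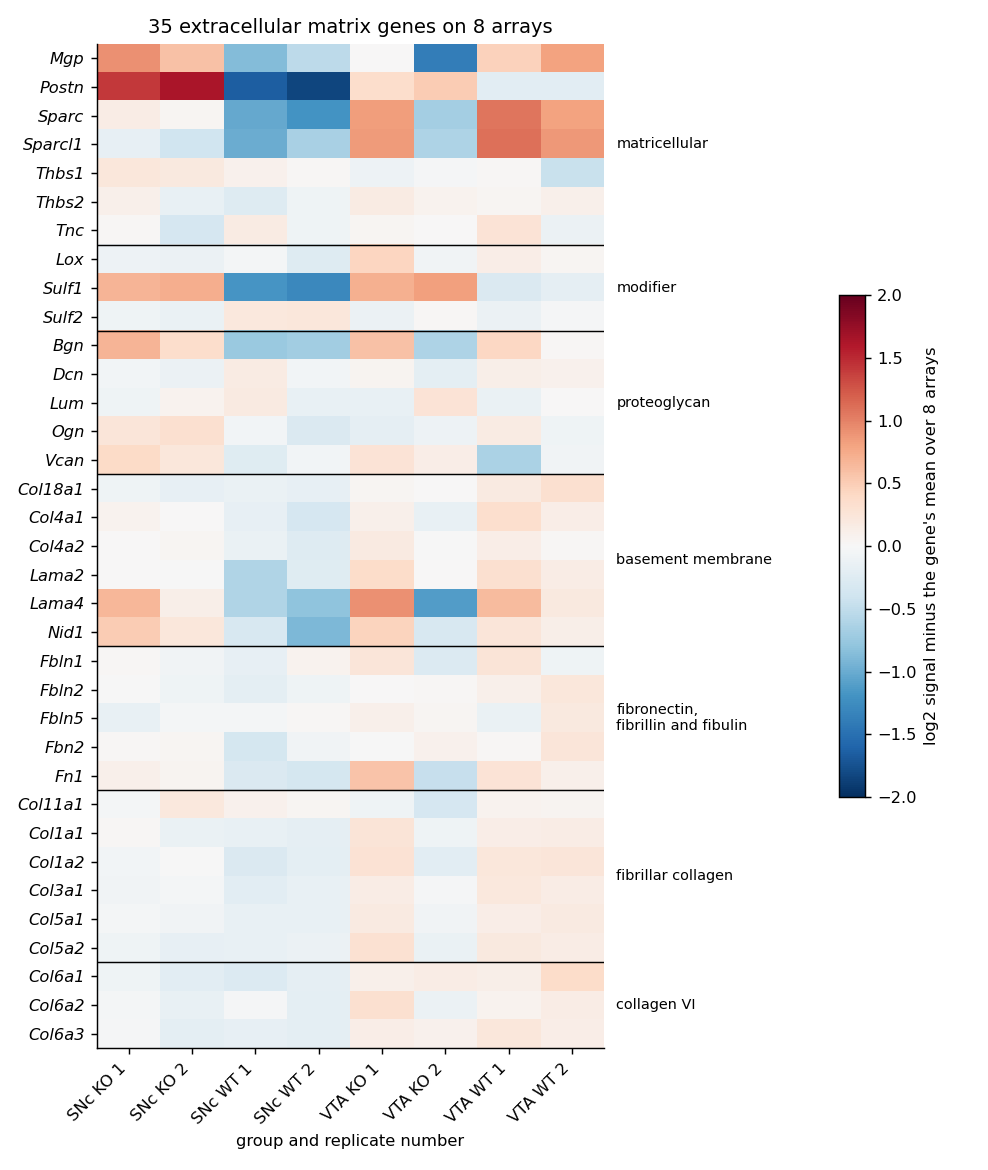
Log2 signal minus the mean of the same gene over the 8 arrays (colour, red above and blue below) for the 35 measured matrix genes (rows, grouped by role) on the 8 arrays (columns, group and replicate number). Postn and Sulf1 are blue in both SNc WT columns and red in both SNc KO columns, and Mgp, Sparc, Sparcl1, Bgn and Lama4 are also blue on VTA KO replicate 2.

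The basement membrane, a sheet of laminin, collagen IV and nidogen, is represented by 6 members, and all 6 had positive differences in SNc KO against SNc WT, between 0.02 for Col18a1 and 1.09 for Lama4. None passed the test. Lama4, the laminin alpha chain of vessel walls, was 7.14 and 6.59 in SNc KO, against 5.87 and 5.67 in SNc WT. Both SNc WT arrays of Lama4 lay under the signal minimum, so the size of its SNc difference is uncertain. In VTA it was 7.38 and 5.35 in VTA KO, against 7.11 and 6.66 in VTA WT. Its VTA KO arrays were the highest and the lowest of the 8, and its difference in VTA, -0.52, was 0.49 without VTA KO replicate 2. Nid1, which links laminin to collagen IV, was 7.03 and 6.76 in SNc KO, against 6.21 and 5.63 in SNc WT, a difference of 0.98 ± 0.297 (SE, n = 2 each) with an adjusted p of 0.426. SNc WT replicate 2 of Nid1 lay under the signal minimum and the SNc WT mean, 5.92, just over it, so that size is uncertain. In VTA, Nid1 was 6.98 and 6.21 in VTA KO, against 6.77 and 6.65 in VTA WT, and the arrays overlapped.

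Lama2, the laminin chain shared by muscle and vessels, averaged 6.02 in SNc KO and 5.60 in SNc WT, and 6.20 in VTA KO and 6.24 in VTA WT. Both SNc WT arrays of Lama2 lay under the signal minimum, so its differences from SNc WT are of uncertain size. Col4a1 and Col4a2 encode the alpha chains that assemble into the common collagen IV network. They differed by 0.29 and 0.21 in SNc KO against SNc WT, by -0.27 and 0.01 in VTA KO against VTA WT, and by -0.49 and -0.27 in SNc WT against VTA WT. Col18a1, the source of endostatin, differed by 0.02 in SNc and -0.23 in VTA, with 95% intervals of -0.23 to 0.28 and -0.49 to 0.03. In SNc WT against VTA WT all 6 basement membrane members were negative, with a median of -0.57.

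Collagens of fibrils and of type VI differed little between the genotypes. In SNc WT against VTA WT their differences ran from -0.48 for Col6a1 to -0.01 for Col11a1, and none of those tested passed. Subtracting array medians moved all differences in this comparison by 0.106, more than the size of that of Col11a1. The fibrillar members Col1a1, Col1a2, Col3a1, Col5a1, Col5a2 and Col11a1 had differences between -0.01 and 0.21 in SNc KO against SNc WT and between -0.27 and -0.05 in VTA KO against VTA WT. Col11a1, a minor chain of cartilage fibrils, was 7.33 and 7.58 in SNc KO, 7.45 and 7.40 in SNc WT, 7.29 and 7.04 in VTA KO, and 7.44 and 7.42 in VTA WT. The arrays of the SNc groups overlapped, and both VTA KO arrays lay below both VTA WT arrays. Col6a1, Col6a2 and Col6a3, the chains of the beaded collagen VI microfibril, differed by 0.00 to 0.08 in SNc KO against SNc WT, by -0.12 to -0.01 in VTA KO against VTA WT, and by -0.27 to -0.20 in SNc KO against VTA KO. In SNc WT against VTA WT all 9 of these collagens had negative differences, with medians of -0.31 over the 6 fibrillar members and -0.35 over the 3 of type VI. The values were -0.47 for Col1a2, -0.35 for Col3a1, -0.30 for Col5a1, -0.48 for Col6a1 and -0.35 for Col6a3, each at an unadjusted p below 0.05 by limma, and none passed after adjustment.

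Fibronectin, fibrillin and fibulins link cells and elastic fibres to the matrix. Fn1, which encodes fibronectin, was 6.11 and 6.07 in SNc KO, against 5.73 and 5.66 in SNc WT, and 6.59 and 5.56 in VTA KO, against 6.29 and 6.11 in VTA WT. SNc WT lay under the signal minimum on both arrays, and VTA KO spanned the values of VTA WT. The difference was 0.39 in SNc (95% interval -0.35 to 1.13) and -0.13 in VTA. Fbn2, Fbln1, Fbln2 and Fbln5 lay between 5.71 and 6.59 on all arrays, with differences of -0.09 to 0.24 in SNc and of -0.14 to 0.03 in VTA.

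The matrix genes outside the list were read for comparison, from lists of other matrix genes, matrix receptors, heparan sulfate synthesis, and collagen processing and matrix proteases. Of 58, 25, 20 and 19 tested genes of these lists, 0 passed in any of the 5 comparisons. In SNc KO against SNc WT, limma at an unadjusted p under 0.05 gave 10 other matrix genes as higher and 1 as lower, and 4 receptors as higher and 2 as lower. For heparan sulfate synthesis it gave 4 higher and 3 lower, and for processing and proteases 3 higher and 0 lower. Over all tested probesets these shares were 4.82% higher and 3.8% lower. The genes named next were chosen after their values were seen.

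Reln encodes reelin, the secreted glycoprotein that guides neuron positioning. It was 8.01 and 7.90 in SNc KO, against 7.10 and 7.26 in SNc WT, and 7.58 and 7.43 in VTA KO, against 6.91 and 6.88 in VTA WT. Knockout arrays were above wild-type arrays in both regions, with differences of 0.77 (adjusted p = 0.11) and 0.61 (adjusted p = 0.191). Spock3, a testican proteoglycan of brain, was 9.38 and 9.54 in SNc KO, against 8.47 and 8.50 in SNc WT, a difference of 0.97 with an adjusted p of 0.161. The vitronectin gene Vtn, which pericytes and liver express, averaged 7.85 in SNc KO and 5.94 in SNc WT, and 7.20 in VTA KO and 8.03 in VTA WT, with adjusted p of 0.411 in SNc. The group means of Reln and Vcan had the same order, highest in SNc KO and then VTA KO, SNc WT and VTA WT.

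The enzymes that put sulfate on heparan sulfate differed in both directions in SNc KO against SNc WT. Hs6st2 and Hs6st3 encode sulfotransferases that add the same kind of sulfate group that Sulf1 and Sulf2 remove. Hs6st2 was 7.89 and 7.73 in SNc KO, against 6.63 and 6.93 in SNc WT, a difference of 1.02 with an adjusted p of 0.174. Hs6st3 was 7.32 and 7.25 in SNc KO, against 8.31 and 8.01 in SNc WT, a difference of -0.87 with an adjusted p of 0.123. The arrays of the SNc genotypes did not overlap for either gene, and neither passed. Ndst3, an enzyme that adds sulfate to nitrogen of the chain, differed by 1.01 (adjusted p = 0.153).

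Among receptors, Cd47, an integrin-associated protein that binds thrombospondin, was 11.03 and 11.07 in SNc KO, against 11.86 and 11.83 in SNc WT, and 10.92 and 10.75 in VTA KO, against 11.46 and 11.44 in VTA WT. It was lower on knockout arrays in both regions, by log2 differences of -0.80 (adjusted p = 0.073) and -0.61 (adjusted p = 0.19). Itgav and Itgb5 encode chains of the integrins that bind periostin. Itgb5 was 6.04 and 6.04 in SNc KO, against 5.53 and 5.54 in SNc WT, a difference of 0.50 with an adjusted p of 0.374. Both SNc WT arrays of Itgb5 lay under the signal minimum, so that size is uncertain. Itgav differed by 0.18 with an adjusted p of 0.904.

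The sorted cells carried the markers of dopaminergic neurons, with 11 of 11 over the signal minimum in every group, and Th was 10.01 to 10.34 over the 8 arrays. Over all probesets with 1 gene symbol, 60% to 64.3% exceeded it in these groups. The 11 markers had a summed linear signal of 6830 and 7490 in SNc KO, against 9734 and 8987 in SNc WT. In VTA the sum was 6739 and 6982 in VTA KO, against 8062 and 7887 in VTA WT. Their median log2 signal went the other way, at 9.45 and 9.45 in SNc KO, against 9.19 and 9.10 in SNc WT. In VTA that median was 9.34 and 9.51 in VTA KO, against 9.01 and 8.84 in VTA WT. In SNc KO against SNc WT limma gave 4 of the 11 as lower and 1 as higher at an unadjusted p below 0.05. The shares over all tested probesets were 3.8% and 4.82%. In VTA KO against VTA WT 3 were lower and 1 higher by the same rule, beside 5.51% and 4.73%, and 0 passed. In SNc 1 marker passed as lower, the dopamine receptor gene Drd2. It was 8.08 and 8.13 in SNc KO and 9.08 and 9.10 in SNc WT (difference -0.98, adjusted p = 0.038 by limma). The targeted gene does not check the genotype labels here. Pitx3 was 7.87 and 7.94 in SNc KO, against 7.72 and 7.63 in SNc WT, and 8.08 and 7.92 in VTA KO, against 8.10 and 7.84 in VTA WT, and which part of the gene is deleted and which is probed is not given in the sources used here. Markers of further cell types were over the minimum in part. In SNc KO and SNc WT these were 6 and 3 of 17 leptomeningeal fibroblast, 3 and 2 of 12 endothelial, 6 and 6 of 11 astrocyte and radial glia, and 3 and 5 of 10 microglia and macrophage markers. Oligodendrocyte lineage markers over it were 5 and 4 of 7. The shares over all probesets with 1 gene symbol were 60.5% in SNc KO and 60% in SNc WT. Of these lists, 1 gene passed in SNc KO against SNc WT, the macrophage marker Mrc1 (difference -1.40, adjusted p = 0.038 by limma). It was 5.43 and 5.19 in SNc KO, both under the signal minimum, and 6.59 and 6.81 in SNc WT. The size of its difference is therefore uncertain. Between the wild-type regions the astrocyte and radial glia markers summed to 2769 and 2705 in SNc WT, against 4638 and 4289 in VTA WT. Of the 7 tested, 5 were lower in SNc WT by limma's unadjusted p below 0.05, beside 10.2% of all tested probesets. The median difference of the 11 measured was -0.499, beside -0.03 over all probesets. The 10 ependymal markers summed to 691 and 739 in linear signal in SNc KO, against 678 and 656 in SNc WT, and to 2293 and 1168 in VTA KO, against 3556 and 2931 in VTA WT. The ependymal markers Dynlrb2 and Ak7 passed as lower in SNc WT against VTA WT, at -3.67 (adjusted p = 0.00943) and -2.86 (adjusted p = 0.0165). Over all tested probesets 0.357% passed as lower there. The part of all these cell types in the matrix values was not tested.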

How the data were processed

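Deposited values are on the log2 scale and were made by the authors from the array probes with RMA (RMA Express by the methods). Which version was used, and on which genome build, is not given in the sources used here. Of 35512 probesets, 21789 carry 1 gene symbol in the platform annotation, 1621 several and 12102 none. A member is represented by its single-symbol probeset. A signal minimum of 60 (linear, mean of the 2 arrays) had to be met by any of the 4 groups, which left 22112 probesets. They were tested with limma 3.58.1 (R 4.3.3) in a model of 4 group means over all 8 arrays, with 4 residual and 2.4 prior degrees of freedom. A call is an adjusted p (Benjamini-Hochberg, per comparison) under 0.05, and tests are two-sided. The fit was tested on simulated data. The LPE test that the methods name was not run here, and the thresholds of the study (unadjusted p of at most 0.05, fold of at least 1.5, signal of at least 60) were applied to limma's p as an alternative. Precision is that of 2 arrays a group: arrays of a group had a standard deviation of 0.252 in SNc KO, 0.242 in SNc WT, 0.376 in VTA KO and 0.241 in VTA WT. Array medians lay between 6.11 and 6.24.

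The members and all lists were chosen with earlier results of these data known, so lists are described by counts and medians and not tested. The text names Postn and Sulf1, every member that passed, and in each comparison the 5 largest positive and the 5 largest negative differences among members over the minimum, and gives the rest by role. Promoter windows are RefSeq's (GRCm38.p6). Alternatives were no signal filter, quantile normalization, subtraction of array medians, only the arrays compared, the replicate number as a block, a variance trend, array weights and leaving out each array.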

Additional observations from a re-analysis of the deposited data

How the results depend on the processing

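With 2 arrays a group, the counts of members that passed depend on the model. In SNc KO against SNc WT the 2 calls became 0 with only the arrays of both groups and 6 at the thresholds of the study (Bgn, Mgp, Nid1, Postn, Sparc and Sulf1), and ranged from 0 to 2 when single arrays were left out. In VTA KO against VTA WT the 0 calls became 3 at the study's thresholds (Mgp, Postn and Sulf1) and ranged from 0 to 1. In SNc WT against VTA WT the 2 calls became 4 with only the arrays compared or with array weights (Postn, Sparc, Sparcl1 and Sulf1), 1 with the replicate number as a block (Postn) and 8 at the study's thresholds, and ranged from 0 to 5 with arrays left out, while the members' median of -0.31 was -0.24 after quantile normalization and -0.21 with array medians subtracted. In SNc KO against VTA KO the 0 calls became 2 at the study's thresholds (Mgp and Postn) and ranged from 0 to 2. For the difference between both knockout effects they became 6 at those thresholds and ranged from 0 to 2, the higher count without VTA KO replicate 1 (Postn and Sparc). The cause was not tested. The counts of members stayed within 1.5 times under no filter, quantile normalization, subtraction of medians and a variance trend. Counts over all tested probesets moved further. They also moved where single arrays were left out, and such fits rest on 1 array in a group. The ranges of calls given above for arrays left out therefore say nothing about the members in particular. The 33 for the knockout in SNc became 14 with no filter, 3 with the replicate number as a block, 89 with array weights and 0 with only the arrays compared. The 2 for the knockout in VTA became 8 after quantile normalization, 10 with array medians subtracted and 0 with no filter, the block, a variance trend, array weights or only the arrays compared. The 97 for the wild-type regions became 62 with no filter, 244 with only the arrays compared and 847 with array weights. The 33 for the knockout regions became 0 with no filter, the block, array weights or only the arrays compared.

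By replicate number, deviations of same-numbered arrays of 2 groups correlated at 0.00577 to 0.098 over 22112 probesets. No strong shared deviation was thus visible, but this check cannot show whether same-numbered arrays were handled together. The labels give no pairing. With the number as a block, the count for the knockout in SNc stayed at 2, and it was 0 in the comparisons other than that of the wild-type regions.

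No difference that passed changed sign. Signs were followed only for the members named in each comparison, and those of the others were not checked in this way. Among the named differences that did not pass, signs turned when single arrays were left out, with these lowest and highest values. In VTA KO against VTA WT, Fbln5 ranged from -0.132 to 0.188, Lama4 from -1.54 to 0.489 and Thbs1 from -0.0868 to 0.382. Vcan in SNc WT against VTA WT ranged from -0.0889 to 0.489. In SNc KO against VTA KO, Bgn ranged from -0.0734 to 1.14, Col6a2 from -0.417 to 0.0109, Lama4 from -0.514 to 1.51, Nid1 from -0.0895 to 0.68 and Sparcl1 from -1.14 to 0.33, and Sulf1 was 0.0154 with array medians subtracted. In the difference between knockout effects, Fbln5 ranged from -0.274 to 0.0462, Tnc from -0.343 to 0.0539 and Vcan from -0.391 to 0.187.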

Other observations

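Several matrix genes outside the list differed between the wild-type regions without passing the test. These were chosen after their values were seen. Of the 58 tested other matrix genes, limma at an unadjusted p under 0.05 gave 20 as lower and 2 as higher in SNc WT against VTA WT, where the shares over all tested probesets were 10.2% lower and 8.59% higher. Prelp, a leucine-rich proteoglycan that anchors basement membranes, averaged 6.60 in SNc WT and 8.10 in VTA WT, a log2 difference of -1.51 with an adjusted p of 0.0566. Timp4, a secreted inhibitor of matrix metalloproteinases, averaged 5.97 in SNc WT and 6.98 in VTA WT, a difference of -1.01 with an adjusted p of 0.0511. Hs6st3 differed the other way, at 8.16 in SNc WT and 7.21 in VTA WT, a difference of 0.95 with an adjusted p of 0.0546.

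A further matrix gene was chosen in the same way for its values by genotype. Col8a1, a short-chain collagen of vessel and eye membranes, averaged 7.53 in SNc KO and 6.92 in SNc WT, and 6.91 in VTA KO and 6.83 in VTA WT. The difference between these effects was 0.53 with an unadjusted p of 0.0245 and an adjusted p of 0.47 from limma, and so did not pass.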
